A study of Mus musculus with 237 samples.

Results

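A set of 10 genes of the contractile apparatus and of mural cells was followed across single cells of the embryonic mouse kidney: Acta2, Tagln, Cnn1, Myl9, Cnn2, Tpm1, Tpm2, Rgs5, Des and Mcam. They were taken by gene symbol, each symbol had 1 entry, and together they make 10 of the 36186 gene entries in the table. Smooth muscle shortens when myosin pulls on actin filaments, and the actin isoform Acta2, the calponin Cnn1 and the actin-binding protein Tagln (transgelin) are classic markers of that state. Mural cells are the pericytes and smooth muscle cells that wrap vessels, and Rgs5, Des and Mcam are used to recognise them. In the kidney such cells descend largely from the stroma, whereas nephron progenitors lie in the cap mesenchyme, which depends on the transcription factor Pax2.

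The labels place 236 cells in 5 groups, and a further cell with conflicting labels entered none. At embryonic day E18.5 there were 44 Pax2 mutant cells of the cap mesenchyme, 71 wild-type interstitial cells and 74 wild-type cells labelled as cap and what derives from it. At E13.5 there were 29 Pax2 mutant cap cells and 18 wild-type cells labelled in that way. All cells are of mixed strain and were enriched by flow sorting before capture in a microfluidic device; titles of the interstitial cells also name FoxD1_GCE. The mutant allele, the gate of the sort and the embryo of each cell are not given in the sources used here. Each group therefore counts as 1 sample, no test between groups was made, SDs describe the spread between cells, and the 95% intervals (exact Clopper-Pearson) cover counting error only. Where a gene was at 0 in all cells of a group, the largest share that this allows is given as 3 cells of the group's total, again for counting error only.

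Values are RPKM, which scale reads to transcript length and to the reads of a cell, and a gene is called detected at 1 RPKM or more. Read depth is unknown, and the number of genes detected per cell stands in for it. Its median was 3643 in E18.5 mutant, 5178 in E18.5 interstitium, 5210.5 in E18.5 cap, 4560 in E13.5 mutant and 5566 in E13.5 cap cells. Pax2 was listed at 0 in all 44 E18.5 mutant cells, which allows a share of up to 6.82%, and was detected in 18 of 71 interstitium and 56 of 74 cap cells. It was detected in 17 of 29 cells labelled E13.5 mutant and in 15 of 18 E13.5 cap cells. Xist, an RNA of female cells, was detected without Y-linked transcripts in 42 of 44 E18.5 mutant, 0 of 71 interstitium, 67 of 74 E18.5 cap, 27 of 29 E13.5 mutant and 0 of 18 E13.5 cap cells, so where the interstitium or E13.5 cap is compared, sex and group cannot be told apart. E18.5 mutant cells come from pool 4 of the titles and E18.5 cap cells from pool 2, so pool and genotype cannot be told apart at E18.5 either. The titles also give each group a date of its own, so date and group cannot be told apart in any comparison, including those within 1 pool. The labels were checked with lineage genes: Six2, of the nephron progenitor, was detected in 1 of 44, 19 of 71, 62 of 74, 9 of 29 and 14 of 18 cells in the same order of groups, and Col1a1, of the stroma, in 44, 67, 14, 18 and 3 cells. All E18.5 mutant cells, labelled cap, thus carried the stromal marker and 43 of 44 lacked the progenitor marker. The interstitium group holds cells with Six2, and the cap groups cells with Col1a1.

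Promoter sequence was read for 9 of the 10 genes from RefSeq on build GRCm38.p6 (250 bases before the gene's start to 50 after it). Tagln had no entry, so its promoter was not searched. The CArG box, the site of serum response factor that many contractile genes carry, was searched for in its strict form. That form is CCWWWWWWGG, with W for A or T, and it reads the same on both strands. Near matches were not counted, such as ccttgtttgg in the Acta2 window, with a g in place of A or T. The strict form was found in the windows of 2 genes, Myl9 and Cnn2, and in 535 of 32851 promoters (1.63%). These are also the genes with the largest differences of E18.5 mutant and of interstitium cells from cap cells below, so their stretches are shown, on the plus strand of chr2:156775273-156775342 for Myl9 and of chr10:79988514-79988583 for Cnn2, with the box in capitals.
Myl9: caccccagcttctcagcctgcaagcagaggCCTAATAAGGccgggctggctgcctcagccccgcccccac
Cnn2: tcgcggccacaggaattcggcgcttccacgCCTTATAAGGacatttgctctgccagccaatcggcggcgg
The box begins 161 bases before the start of Myl9 and 56 bases before that of Cnn2. CATTCC, the core of the site bound by TEAD factors, was present on either strand in the windows of Acta2 and Tpm1, and in 4817 of 32851 promoters (14.7%). A match describes the letters of the window only.

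The contractile core, Acta2, Tagln and Cnn1, was found in few cells of any group. Acta2 (mm10 chromosome 19, 34240337 to 34255336), the actin of smooth muscle, ranged from 0 to 4042 RPKM in E18.5 mutant cells, from 0 to 210 in interstitium cells and from 0 to 482 in E18.5 cap cells, with a median of 0 in each group. Cells with Acta2 numbered 7 of 44 mutant cells (15.9%, 6.64 to 30.1), 18 of 71 interstitium cells (25.4%, 15.8 to 37.1) and 4 of 74 cap cells (5.41%, 1.49 to 13.3). The intervals of mutant and interstitium cells overlap, and with every value above 0 counted the order turned, at 15 of 44 mutant (34.1%) and 19 of 71 interstitium cells (26.8%). The median over cells with Acta2 at 1 RPKM was 523 RPKM in mutant cells, 30.03 in interstitium cells and 88.3 in cap cells. At E13.5 it was listed at 0 in all 29 mutant cells, which allows a share of up to 10.3%, and in all 18 cap cells, which allows up to 16.7%.

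Tagln (chromosome 9, 45929628 to 45936058), which binds actin filaments in smooth muscle, was detected in 7 of 44 E18.5 mutant cells (15.9%, 6.64 to 30.1), 4 of 71 interstitium cells (5.63%, 1.56 to 13.8) and 3 of 74 cap cells (4.05%, 0.844 to 11.4). Its highest values were 2231 RPKM in mutant, 53.5 in interstitium and 13.4 in cap cells. At E13.5, 1 of 29 mutant cells held it, at 208 RPKM, and none of 18 cap cells did. In the annotation (GENCODE M21) its exons share 108 bases with Pcsk7 and 1241 bases with the antisense gene Gm48529, both on the opposite strand. The strand rule of the counting is not given in the sources used here, so reads from these genes cannot be told apart.

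Cnn1 (chromosome 9, 22099253 to 22109221), the calponin of differentiated smooth muscle, was detected in 2 of 44 E18.5 mutant cells, at 48.7 and 17.01 RPKM, and in 1 of 18 E13.5 cap cells, at 4.59 RPKM. It was listed at 0 in every interstitium, E18.5 cap and E13.5 mutant cell, which allows shares of up to 4.23%, 4.05% and 10.3%. The 3 core genes overlapped in some mutant cells. Of the 7 mutant cells with Acta2, 4 also had Tagln, against 3 of the 37 without Acta2, and both cells with Cnn1 had both other genes. All 7 cells with Acta2 also held Myl9, Cnn2 and Tpm1, which were common without it too, in 25, 28 and 23 of the 37 other mutant cells. Across the 44 mutant cells, which share their library preparation and vary in depth, the correlation of log2(RPKM + 1) was r = 0.69 between Acta2 and Tagln and r = 0.66 between Acta2 and Cnn1. Most of these cells were under 1 RPKM for each gene, and the value for Cnn1 rests on the 2 cells that held it. Between Acta2 and Tagln r was -0.05 in interstitium cells and -0.04 in E18.5 cap cells.

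A pair of E18.5 mutant cells carried all of the core. Mutant cell 23 had Acta2 at 4042, Tagln at 558, Cnn1 at 48.7, Cnn2 at 3503 and Tpm1 at 1231 RPKM. Mutant cell 22 had Tagln at 2231, Acta2 at 920, Cnn1 at 17.01 and Myl9 at 4275 RPKM, with the myosin light chain kinase Mylk at 302 and the matrix gene Postn at 365. Myh11, the heavy chain of smooth muscle myosin, was 2.42 RPKM in cell 22 and 0 in cell 23. Both cells held stromal Col1a1 (221 RPKM in cell 23 and 331 in cell 22) and Pdgfra (149 and 125), with Six2 under 1 RPKM and Rgs5, Des and Mcam at 0.

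At least 1 of the 3 core genes was detected in 10 of 44 E18.5 mutant, 21 of 71 interstitium, 7 of 74 E18.5 cap, 1 of 29 E13.5 mutant and 1 of 18 E13.5 cap cells. In the interstitium 20 of the 21 cells held a single core gene, mostly Acta2, and 1 cell held 2 of them. In the E18.5 cap all 7 held 1. The 2 cap cells with the highest Acta2, at 482 and 173 RPKM, had Col1a1 at 154 and 135 RPKM and Six2 at 0. The other 2, at 3.81 and 1.27 RPKM, had Six2 at 116 and 16.01 RPKM and Col1a1 at 0.

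**Figure D1:**
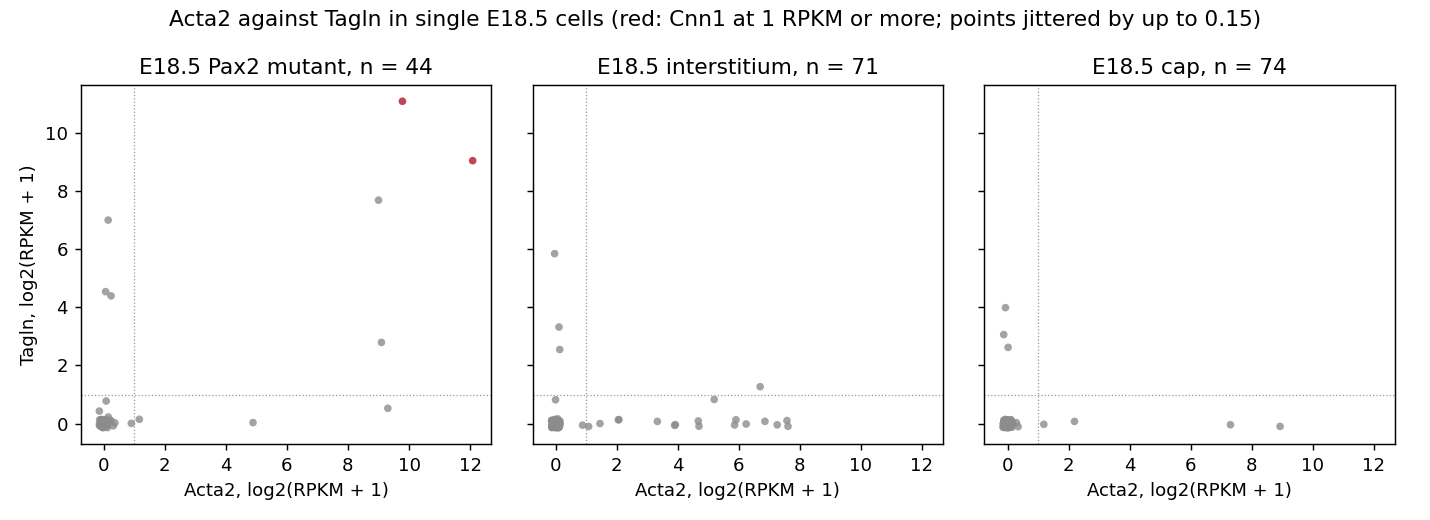
Acta2 (horizontal) against Tagln (vertical), both as log2(RPKM + 1), in single E18.5 Pax2 mutant, interstitium and cap cells; each point is a cell, dotted lines mark 1 RPKM and red marks Cnn1 at 1 RPKM or more. In mutant cells 4 points lie above both lines, in interstitium cells 1 and in cap cells none.

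Myl9 and Cnn2 set E18.5 mutant and interstitium cells apart from cap cells most. Myl9 (chromosome 2, 156775464 to 156781657), the regulatory light chain of smooth muscle and non-muscle myosin, ranged from 0 to 4275 RPKM with a median of 56.4 in E18.5 mutant cells, from 0 to 873 with a median of 85.9 in interstitium cells, and from 0 to 1011 with a median of 0 in cap cells. Detection was in 32 of 44 mutant (72.7%, 57.2 to 85.0), 58 of 71 interstitium (81.7%, 70.7 to 89.9) and 21 of 74 cap cells (28.4%, 18.501 to 40.1). The groups overlapped, since each held cells at 0, but the shares of mutant and of interstitium cells lay above the interval of the cap. Mean log2(RPKM + 1) was 5.20 ± 3.82 in mutant cells, 5.39 ± 3.11 in interstitium cells and 1.32 ± 2.43 in cap cells, which made differences of 3.87 for mutant minus cap and 4.06 for interstitium minus cap.

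Cnn2 (chromosome 10, 79988600 to 79995400), the calponin of non-muscle as well as muscle cells, ranged from 0 to 7841 RPKM with a median of 127 in E18.5 mutant cells, from 0 to 954 with a median of 142 in interstitium cells and from 0 to 1299 with a median of 0 in cap cells. Cells with Cnn2 numbered 35 of 44 mutant (79.5%, 64.7 to 90.2), 67 of 71 interstitium (94.4%, 86.2 to 98.4) and 26 of 74 cap cells (35.1%, 24.4 to 47.1). The differences of mean log2(RPKM + 1) were the largest of the 10 genes, at 4.13 for mutant minus cap and 4.69 for interstitium minus cap. The highest cap cell was the one that also led in Acta2.

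Tpm1 (chromosome 9, 67022593 to 67049213), a tropomyosin that lies along actin filaments, was common in every group. Cells with Tpm1 numbered 30 of 44 E18.5 mutant, 66 of 71 interstitium, 43 of 74 cap, 23 of 29 E13.5 mutant and 15 of 18 E13.5 cap cells. Its median was 19.6 RPKM in E18.5 mutant, 49.6 in interstitium and 2.97 in cap cells, with ranges from 0 to 1231, 0 to 396 and 0 to 192. All 58 interstitium cells with Myl9 also had Tpm1, against 8 of the 13 without Myl9. Mean log2(RPKM + 1) was higher by 1.54 in mutant than in cap cells and by 2.61 in interstitium than in cap cells. The mutant mean was 1.08 lower than that of the interstitium, a difference of -0.79 after median-ratio scaling of the cells and of 0.29 when the mean was taken before the log.

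Tpm2 (chromosome 4, 43514711 to 43523388), the second tropomyosin, went the other way. Its median was 1.08 RPKM in E18.5 mutant, 14.5 in interstitium and 33.6 in cap cells, with ranges from 0 to 238, 0 to 148 and 0 to 269. It was detected in 22 of 44 mutant (50%, 34.6 to 65.4), 45 of 71 interstitium (63.4%, 51.1 to 74.5) and 61 of 74 cap cells (82.4%, 71.8 to 90.3). Mean log2(RPKM + 1) was 2.02 lower in mutant than in cap cells and 1.35 lower in interstitium than in cap cells. Within pool 2, which holds 22 of the interstitium cells and all cap cells, the difference of interstitium minus cap was -0.67 and no longer reached 1.

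Rgs5 (chromosome 1, 169655501 to 169693526), a regulator of G-protein signalling and a pericyte marker, was found most often in the interstitium. It ranged from 0 to 702 RPKM with a median of 0.0745 in E18.5 mutant cells, from 0 to 1872 with a median of 43.9 in interstitium cells, and from 0 to 776 with a median of 0 in cap cells. It was detected in 18 of 44 mutant (40.9%, 26.3 to 56.8), 47 of 71 interstitium (66.2%, 53.99 to 77.003) and 11 of 74 cap cells (14.9%, 7.66 to 25.04). The mutant cells stood between the other groups, 2.20 log2 units above cap and 1.46 below interstitium. In the interstitium 34 of the 38 cells with Pdgfrb, the receptor of pericytes and stroma, had Rgs5, against 13 of the 33 without. In mutant cells Rgs5 was found in 7 of 15 with Pdgfrb and 11 of 29 without.

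Des (chromosome 1, 75360344 to 75367715), the intermediate filament desmin, was by contrast found most often in the cap groups. It ranged from 0 to 219 RPKM in E18.5 mutant cells and from 0 to 88.7 in interstitium cells, with a median of 0 in both, and from 0 to 340 with a median of 4.18 in cap cells. It was detected in 3 of 44 mutant (6.82%, 1.43 to 18.7), 11 of 71 interstitium (15.5%, 7.996 to 26.03) and 42 of 74 cap cells (56.8%, 44.7 to 68.2). Mean log2(RPKM + 1) was 2.27 lower in mutant than in cap cells, and 1.93 lower in interstitium than in cap cells.

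Des went with Six2. All 42 cap cells with Des had Six2, which was detected in 62 of the 74, while the 12 cap cells without Six2 had no Des. These 12 had a median of 3894 genes, against 5458 in the cells with Six2, and the part of depth was not tested; in the same 12 cells Tpm2 was detected in 7 and Cnn2 in 6. At E13.5 all 12 cap cells with Des had Six2, and the 4 without Six2 lacked Des. In the interstitium Des was found in 7 of 19 cells with Six2 and in 4 of 52 without. The Six2-positive interstitium cells had a median of 6057 genes, and the others 4767.5. The single E18.5 mutant cell with Six2, at 28.8 RPKM, was also the one with the highest Des, at 219 RPKM. Exons of Des share 220 bases with the antisense gene Gm15179, from which its reads cannot be told apart.

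Mcam (chromosome 9, 44134658 to 44142726), a cell adhesion molecule of pericytes and endothelium, was found in 1 of 44 E18.5 mutant cells (2.27%, 0.0575 to 12.02), 9 of 71 interstitium (12.7%, 5.96 to 22.7) and 17 of 74 cap cells (22.97%, 13.99 to 34.2). All 17 cap cells with Mcam had Six2, which was detected in 62 of the 74 cap cells. The 12 cap cells without Six2 had fewer genes (median 3894 against 5458), and the part of depth was not tested. The highest values of Mcam were elsewhere: 909 and 888 RPKM in interstitium cells 10 and 56, against 18.2 in the next interstitium cell, 107 at most in cap cells and 9.72 in the mutant cell. Both interstitium cells had Pdgfrb (295 and 441 RPKM) and Six2 at 0, and cell 56 also had the pericyte genes Cspg4 at 121 and Kcnj8 at 117 RPKM. The difference of mean log2(RPKM + 1) between interstitium and cap was -0.46, while that of log2(mean RPKM + 1) was 1.60. Exons of Mcam share 17 bases with the opposite-strand gene Gm10687.

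Counted together, 5 of the 10 genes were higher by 1 log2 unit in E18.5 mutant than in cap cells (Cnn2, Myl9, Rgs5, Tpm1 and Acta2, the last by 1.03) and 3 were lower (Des, Tpm2 and Mcam, the last by 1.02). Among the 11100 genes at 1 RPKM in 10% or more of either group's cells, 4.51% were higher by as much and 23.2% lower, and their median difference was -0.40. The median of the 10 genes was 1.01. Relative to the median of all genes, 6 members were higher (Tagln joined them, at 1.38) and 2 lower, Mcam standing at -0.62. On this scale a gene near 0 in both groups stands above 0 whenever the median is below 0. Tagln was detected in 3 of 74 cap cells, so its relative value is to be read with this limit. Acta2 and Mcam crossed the threshold narrowly: in cells with 3000 to 5000 genes Acta2 differed by 0.79, and after median-ratio scaling Mcam differed by -0.93.

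In interstitium minus cap cells, 4 genes were higher (Cnn2, Myl9, Rgs5 and Tpm1) and 2 lower (Des and Tpm2), against 5.94% and 2.7% of 11219 genes, with a median of all genes of 0.01. Within pool 2 there were 5 higher, Acta2 joining at 1.10, and 1 lower, Des at -1.45, against 7.24% and 5.34% of genes. The comparisons with E18.5 cap share the same cap cells, so their values are not independent of each other. Directly between mutant and interstitium, no gene was higher and 2 were lower, Rgs5 and Tpm1, against 2.05% and 23.4% of 10903 genes. The median of the 10 genes was -0.45, beside -0.41 for all genes. When log2(mean RPKM + 1) was compared in place of mean logs, Tagln was higher in mutant than in interstitium cells by 5.19, Acta2 by 3.20 and Myl9 by 1.04. Cnn1 was higher by more than 1 as well, with a mean of 1.49 RPKM in mutant cells and 0 in all interstitium cells. Such means lean on the highest cells. The highest mutant cell had 2231 RPKM for Tagln, 4042 for Acta2 and 4275 for Myl9, beside means of 71.9, 152 and 320 over the mutant cells. How far the differences rest on single cells was not tested. Acta2 was at 100 RPKM or more in 5 mutant and 5 interstitium cells, and Tagln in 4 mutant cells and 0 interstitium cells. Relative to the median of all genes, Tagln was 1.31 higher and Rgs5 1.05 lower in mutant cells, and Tpm1 stood at -0.67. With Tagln detected in 4 of 71 interstitium cells, the limit of this scale for genes near 0 applies to it again.

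**Figure D2:**
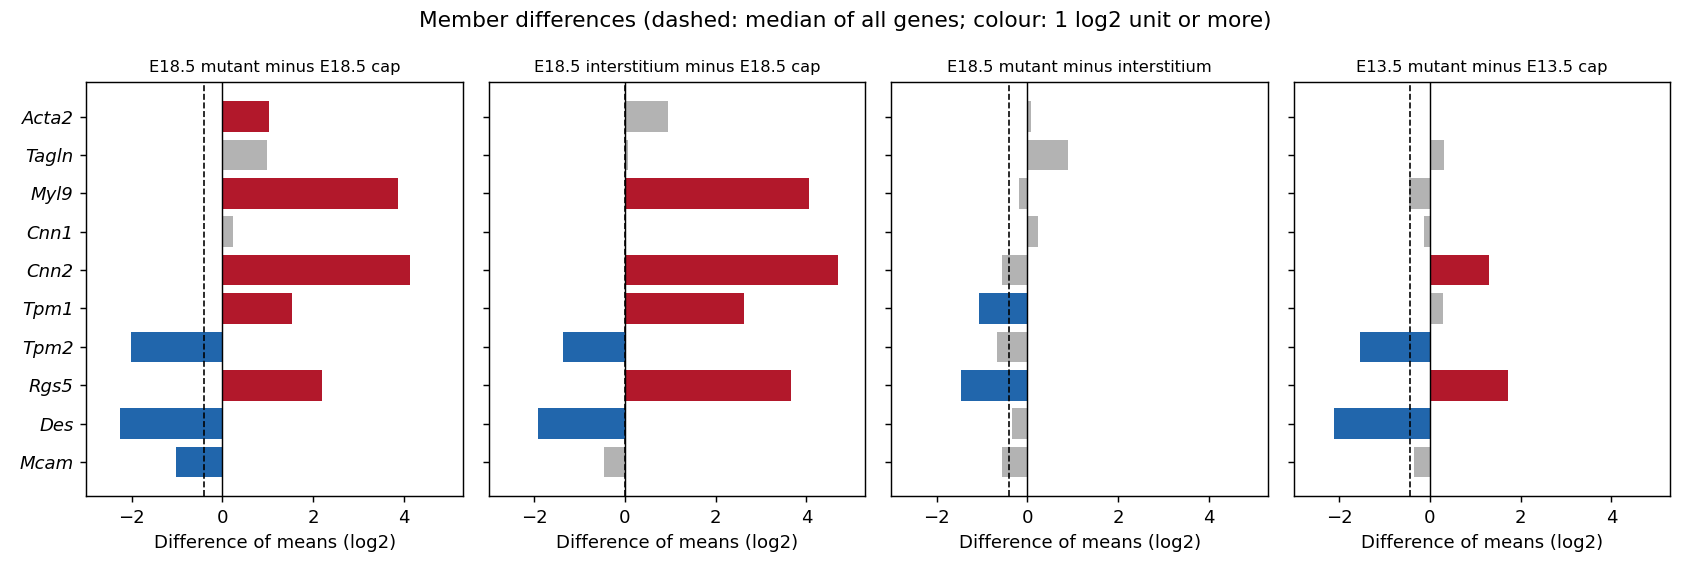
Difference of mean log2(RPKM + 1) for each gene, first group minus second, in 4 comparisons; colour marks differences of 1 or more and the dashed line the median of all genes tested. Des and Tpm2 are negative in all 4 panels, and Cnn2 and Myl9 are at 3.87 or more in both E18.5 comparisons with cap.

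At E13.5 the pattern was partial; Pax2 was detected in 17 of the 29 cells labelled mutant here, and whether the allele leaves a transcript is not given in the sources used here. Cnn2 was found in 13 of 29 mutant cells and 3 of 18 cap cells and Rgs5 in 12 of 29 mutant cells and 2 of 18 cap cells, with differences of 1.31 and 1.71. The highest Rgs5 was 1755 RPKM in mutant and 48.3 in cap cells. Myl9 was found in 9 of 29 mutant cells and 3 of 18 cap cells, yet mostly at low values in mutant cells (median 1.66 RPKM where detected, against 118 in cap cells), and differed by -0.47. Des was found in 6 of 29 mutant cells and 12 of 18 cap cells and Tpm2 in 14 of 29 mutant cells and 13 of 18 cap cells, with differences of -2.11 and -1.54. These 2 genes higher and 2 lower stand against 1.43% and 27.7% of 11449 genes, so lower values were common in the mutant cells, whose median over all genes was -0.45. Both groups are of pool 3, with different dates, and only 2 E13.5 cap cells have 3000 to 5000 genes, so a comparison at matched gene number rests on those 2.

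Between ages, mutant cells of E18.5 differed from those of E13.5 in Myl9 (by 4.51), Cnn2 (by 3.64) and Acta2 (1.31 ± 3.21 at E18.5, listed at 0 in all cells at E13.5), all higher at E18.5, against 6.69% of 10872 genes. None was lower, against 11.5%. In the same comparison all 8 genes of a stromal list were higher, with a median of 3.71. Of a nephrogenic interstitium list, 5 of 8 were higher and 1 was lower. The part of both lists in the differences was not tested. In wild-type cap cells no gene differed by 1 between E18.5 and E13.5, against 2.53% higher and 14.5% lower of 11423 genes; the largest differences were -0.83 for Tpm1 and 0.82 for Cnn2, which stood at 1.03 relative to the median of all genes, -0.21. With Cnn2 detected in 3 of 18 E13.5 cap cells, the limit given above for genes near 0 applies to its relative value. Age, pool and, for cap cells, sex cannot be told apart here.

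The number of these genes held by a cell differed between groups as well. At least 4 of the 10 were detected in 25 of 44 E18.5 mutant cells (56.8%, 41.03 to 71.7), 57 of 71 interstitium cells (80.3%, 69.1 to 88.8) and 30 of 74 cap cells (40.5%, 29.3 to 52.6). At E13.5 they were detected in 8 of 29 mutant cells (27.6%, 12.7 to 47.2) and 3 of 18 cap cells (16.7%, 3.58 to 41.4). The median was 4 genes per mutant cell and 5 per interstitium cell at E18.5, and 3 in each of the other groups. No cell held more than 7, and 7 were held by 2 E18.5 mutant, 1 interstitium and 1 E13.5 mutant cells. The interstitium cells of pools 2 and 3 had shares of 81.8% and 79.6%.

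Cells with 4 or more also had more genes in all. Their median was 3788 genes in E18.5 mutant, 5278 in interstitium and 5701.5 in cap cells, beside 3518, 4125.5 and 4987 in the cells with fewer members. Among cells with 3000 to 5000 genes the shares were 63.6% of 33 mutant, 74.3% of 35 interstitium and 34.6% of 26 cap cells, with intervals of 45.1 to 79.6 in mutant, 56.7 to 87.5 in interstitium and 17.2 to 55.7 in cap cells. Those of mutant cells overlap both others. Over all cells the interval of mutant cells likewise overlaps both others.

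**Figure D3:**
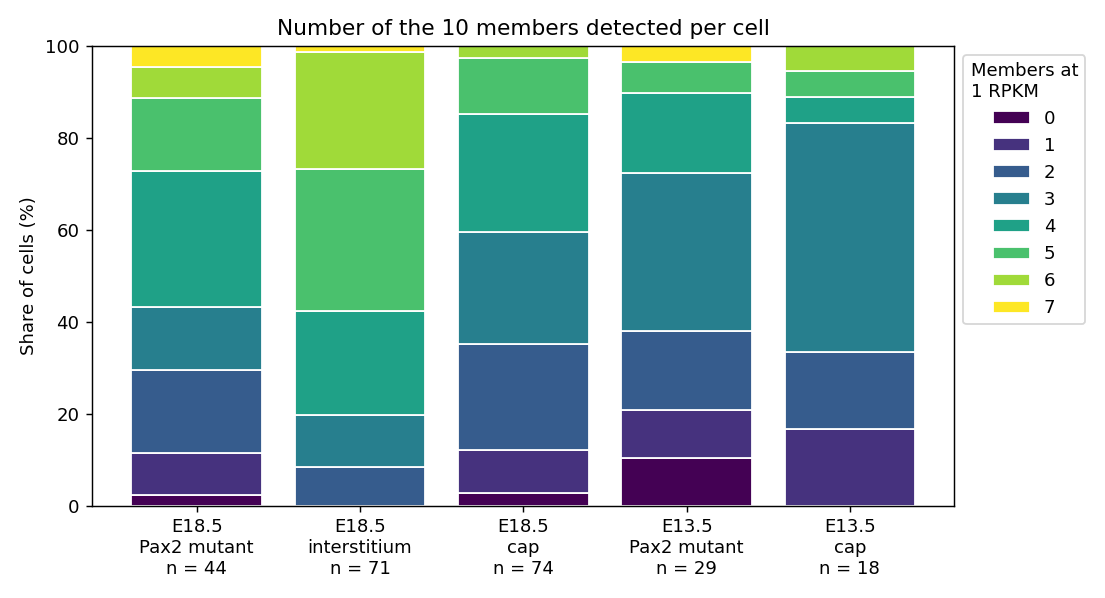
Share of cells (vertical, %) by the number of the 10 genes detected, in each group; colours run from 0 to 7 genes. Cells with 4 or more make up 56.8% of the E18.5 mutant column, 80.3% of the interstitium column and 40.5% of the E18.5 cap column.

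The same count stood in part for different genes. Of the 25 mutant cells with 4 or more, 24 had Cnn2, 24 had Tpm1, 23 had Myl9, 18 had Tpm2, 10 had Rgs5 and 3 had Des. Of the 57 interstitium cells, all had Tpm1, 56 had Cnn2, 52 had Myl9, 42 had Rgs5, 41 had Tpm2 and 10 had Des. Of the 30 cap cells, 29 had Tpm2, 28 had Tpm1 and 26 had Des, but 16 had Cnn2, 14 had Myl9 and 7 had Rgs5. Col1a1 was detected in 25 of 25 mutant, 56 of 57 interstitium and 5 of 30 cap cells of this kind, and in 19 of 19, 11 of 14 and 9 of 44 cells with fewer members. Six2 was detected in 1 of 25, 16 of 57 and 27 of 30, and in 0 of 19, 3 of 14 and 35 of 44 cells with fewer, so these lineage genes mark the groups as a whole. Among cells with 4 or more, Des was thus most frequent in the cap, and Myl9 and Cnn2 in mutant and interstitium cells. Both tropomyosins were frequent in mutant, interstitium and cap cells alike. Tpm2 was also detected in 32 of the 44 cap cells with fewer members.

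**Figure D4:**
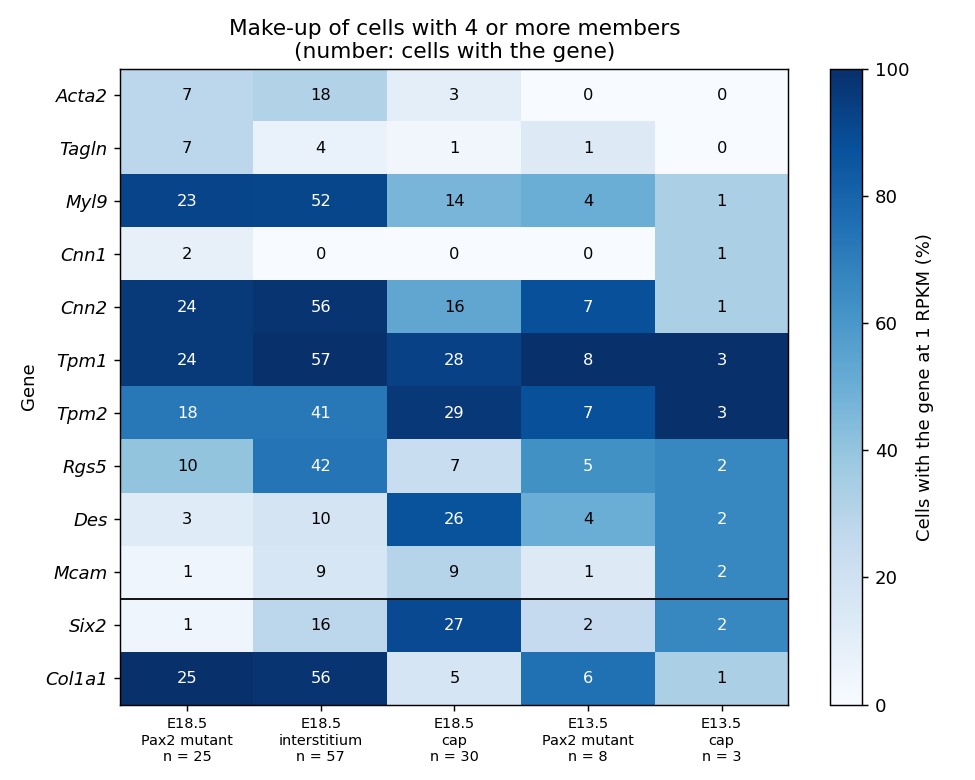
Cells with 4 or more of the 10 genes, by group (columns) and gene (rows); colour gives the share of those cells with the gene at 1 RPKM and the number the count of cells. Most E18.5 cap cells of this kind hold Tpm2, Tpm1, Des and Six2. Most E18.5 mutant and interstitium cells of this kind hold Cnn2, Tpm1, Myl9, Tpm2 and Col1a1.

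Other contractile genes were read from lists, whose counts here and below stand beside the shares of all genes. In E18.5 mutant minus cap cells 4.51% of all genes were higher and 23.2% lower. These shares were 5.94% and 2.7% in interstitium minus cap cells, and 2.05% and 23.4% in mutant minus interstitium cells. Of 12 further genes of smooth muscle contraction, 2 were higher in E18.5 mutant than in cap cells, Mylk by 1.39 and the actin-associated Smtn by 1.11, and none lower. In interstitium minus cap cells 3 were higher, Mylk by 2.98, the actin regulator Cald1 by 1.89 and Smtn by 1.52, and none lower. In mutant minus interstitium cells Mylk was 1.59 lower and Cald1 1.63 lower, and none was higher; 2 of 12 lower stands beside 23.4% of all genes in that comparison. The list medians against cap were 0.15 and 0.11, beside -0.40 and 0.01 for all genes. Mylk was detected in 17 of 44 mutant, 56 of 71 interstitium and 8 of 74 cap cells. Myh11 reached 1 RPKM in 2 of 44 mutant cells, with a highest value of 4.80, and in no cell of the other groups, and Actg2, the enteric smooth muscle actin, in no cell at all.

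Of 15 cytoplasmic actin, myosin and filament-binding genes, 6 were higher in mutant than in cap cells and 12 in interstitium than in cap cells, with medians of 0.53 and 1.65. In mutant minus interstitium cells 7 were lower and none higher, beside 23.4% lower and 2.05% higher of all genes, with a median of -0.88 beside -0.41. The summed level of the list went the other way, with a median of 12720 RPKM in mutant, 11436 in interstitium and 5926 in cap cells. Tagln2, a relative of Tagln, was detected in 12 of 44 mutant, 45 of 71 interstitium and 9 of 74 cap cells. The filament cross-linker Flna was higher than in cap cells by 1.52 in mutant and by 2.16 in interstitium cells. Actb, the cytoplasmic actin, was detected in every cell of every group and was higher than in cap cells by 1.41 in mutant and 1.15 in interstitium cells.

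Of 10 regulators around serum response factor (SRF), 1 was higher (Tgfb1i1) and 1 lower (Rock1, by 1.09) in E18.5 mutant than in cap cells. In interstitium minus cap cells 2 were higher (Fhl2 and Tgfb1i1) and none lower, and in mutant minus interstitium cells 1 was higher (Tgfb1i1) and 3 lower (Fhl2, Rhoa and Rock2). The lower counts, 1 and 3 of 10, stand beside 23.2% of all genes lower against cap and 23.4% lower against interstitium. Srf itself was found in 4 of 44 E18.5 mutant cells, 15 of 71 interstitium and 13 of 74 cap cells, and Myocd, the smooth muscle coactivator of SRF, in 1, 6 and 0 cells. A LIM-domain cofactor, Fhl2, was detected in 10 of 44 mutant, 60 of 71 interstitium and 32 of 74 cap cells, and was 4.19 lower in mutant than in interstitium cells. Tgfb1i1, another LIM-domain protein, was detected in 32 of 44 mutant, 35 of 71 interstitium and 5 of 74 cap cells, 1.55 above interstitium and 3.65 above cap. These counts place mutant cells below the interstitium for Fhl2 and above it for Tgfb1i1.

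Pericyte genes outside the 10 were detected in part. Of 12, 3 were higher in E18.5 mutant than in cap cells (Cd248 by 2.66, Anpep by 1.35 and Pdgfrb by 1.06) and 1 was lower (Heyl by 1.37). In interstitium minus cap cells Cd248, Pdgfrb and Kcnj8 were higher, by 2.22, 2.02 and 1.38, and none was lower. Higd1b and Vtn were listed under 1 RPKM in every cell of all groups. The list's summed level ranged from 0.160 to 631 RPKM in mutant, from 0 to 1061 in interstitium and from 0 to 165 in cap cells. Of 6 renin and mesangial genes, 1 was higher than in cap cells, the guanylate cyclase subunit Gucy1a3, by 1.52 in mutant and 1.17 in interstitium cells, and 1 was lower, Itga8, by 2.58 in mutant and 1.62 in interstitium cells. Beside the counts of both lists, 4.51% of all genes were higher and 23.2% lower in mutant than in cap cells. For interstitium minus cap cells these shares were 5.94% and 2.7%. Ren1, the renin gene of juxtaglomerular cells, was detected in 1 mutant and 2 interstitium cells. The integrin Itga8 was found in 3 of 44 mutant and 23 of 71 interstitium cells, and most often in cap cells, in 54 of 74.

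Markers of other cells that could carry these transcripts were read too. Of 6 genes of the ureter's smooth muscle precursors, a list that includes Acta2, 3 were higher in E18.5 mutant than in cap cells: Acta2, Tshz3 by 1.88 and Tbx18, which was detected in 10 of 44 mutant, 1 of 71 interstitium and 0 of 74 cap cells. Against interstitium cells 2 were higher in mutant cells, Tshz3 by 1.51 and Sox9 by 1.27. In E13.5 mutant minus cap cells 3 were higher, Sox9 by 2.10, Tshz3 by 1.496 and Bmp4 by 1.10. Of all genes, 4.51%, 2.05% and 1.43% were higher in these 3 comparisons. The list's summed level ranged from 0 to 4286 RPKM in mutant, 0 to 354 in interstitium and 0 to 482 in cap cells at E18.5, Acta2 included. Of 8 endothelial markers, 3 were detected in any E18.5 mutant, 4 in any interstitium and 2 in any cap cell, and Pecam1, Tie1, Esam and Flt1 were under 1 RPKM in all E18.5 cells. None of the 8 differed by 1 from cap cells in mutant or interstitium cells. The summed endothelial level ranged from 0 to 213, 0 to 73.6 and 0 to 63.6 RPKM in these groups. A single E13.5 cap cell held 6 of the 8, with a sum of 1501 RPKM. Of 8 skeletal and cardiac muscle markers, 3 were detected in each of the E18.5 groups; Myog, Actc1 and Ckm were under 1 RPKM in all of their cells. None of these 8 differed by 1 between mutant and cap cells, and 1 was higher in interstitium than in cap cells (Tnnt1, a troponin, by 1.41). Their summed level ranged from 0 to 659 RPKM in mutant, 0 to 628 in interstitium and 0 to 555 in cap cells, with Tnnt1 reaching 659, 627 and 555 RPKM. The part of such cells in the values above was not tested.

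Stromal genes moved with Myl9 and Cnn2 at the level of groups: all 8 of a stromal list were higher than in cap cells in E18.5 mutant and in interstitium cells, and the median number detected per cell was 6.5 in mutant, 7 in interstitium and 1 in cap cells. Nephron progenitor genes moved with Des: 6 of 8 were lower than in cap cells in mutant and in interstitium cells. Of all genes, 4.51% were higher and 23.2% lower in mutant than in cap cells. In interstitium minus cap cells 5.94% were higher and 2.7% lower. The summed progenitor level had medians of 0.732 RPKM in mutant, 26.5 in interstitium and 466 in cap cells. How much of each gene's difference lies in the make-up of the groups was not tested.

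The genes most like the 10 were sought by the correlation of each gene with their mean log2(RPKM + 1) over 236 cells after subtracting group means, among 9682 genes. The highest were Septin7 (r = 0.46), Tmem263 (listed as AI597468, r = 0.45) and Cavin1 (listed as Ptrf, r = 0.41), followed by Cox6c, Ywhae, Mdh1, Actg1, Fis1, Aprt and Cox7a2l, with r down to 0.36. Cells share library and depth, and the number of genes per cell itself had r = 0.26 with the mean.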

How the data were processed

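The authors deposited 1 table of RPKM for 36186 gene entries in 237 cells; reads were aligned with TopHat and to mm10, per the submitters' processing notes, and the version, gene models and counting rule are not given in the sources used here. Of the entries, 18447 are 0 in every cell. Whole-read steps were not seen in ratios of low values (over 225 pairs of cells, a median of 10.5% lay in 3 bins 0.02 log2 units wide), so depth is unknown and a count model was not used. No 2 cells looked like copies (highest correlation 0.81, median 0.54). Libraries were made with the Fluidigm C1, per the labels' protocols.

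Groups follow the labels for genotype, age, source and cell type. One cell named cap in one label and interstitial in another was left out. Values were taken as log2(RPKM + 1), averaged per group, and called higher or lower at 1 log2 unit; detection was 1 RPKM. With each group as 1 sample, no p-value was computed. Percentages of all genes refer to those at 1 RPKM in 10% or more of either group's cells. No doublets were called and no cell was removed for quality. The difference script was tested on simulated data. The members and lists were chosen with earlier results of these data known; beyond them, the text names the 10 genes most correlated with the members (without Gm, Rik, mitochondrial, ribosomal protein and haemoglobin entries), while Xist, Pax2 and single cells were chosen after their values were seen. Lists described above in part (nephrogenic interstitium, ureter smooth muscle precursor) or not at all (ureteric epithelium, podocyte and tubule, immune, erythroid) were read in the same way. In E18.5 mutant minus cap cells they had 5 of 8, 3 of 6, 0 of 8, 1 of 8, 0 of 6 and 0 of 4 entries higher, and 1, 0, 1, 0, 0 and 0 lower. Of all genes, 4.51% were higher and 23.2% lower in that comparison. Alternatives changed the threshold, pseudocount, scaling, cells or filter. Python 3.11.15, numpy 2.4.6, pandas 2.3.3, scipy 1.17.1 and matplotlib 3.10.9 were used.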

Additional observations from a re-analysis of the deposited data

Results flagged for a closer look

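The cell left out of all groups, whose source name says E13.5 cap and whose cell type label says interstitial, had Des at 124.6 RPKM. That is above every E13.5 cap cell, the highest of which had 109 RPKM, and above every interstitium cell, the highest of which had 88.7 RPKM. It also held Tpm2 at 20.5 and Tpm1 at 3.12 RPKM, 3 of the 10 genes in all, and 6570 genes at 1 RPKM or more. Acta2, Tagln, Cnn1, Rgs5 and Mcam were listed at 0 in it, and Myl9 and Cnn2 were under 1 RPKM.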

How the results depend on the processing

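No paired analysis was possible because single cells carry no replicate number that joins groups; the pool numbers in the titles, which groups share in part, mark batches of many cells. Of 23 gene differences of 1 log2 unit or more, 11 stayed past 1 under every alternative run, and 2 of the 23 changed sign: Tpm1 in E18.5 mutant minus interstitium cells was 0.29 from log2(mean RPKM + 1), and Tpm2 in E13.5 mutant minus cap cells was 2.82 in cells with 3000 to 5000 genes, where the cap has 2 cells. The share of cells with 4 or more members depends on its definition. Asking for 3 gave 91.5% of interstitium, 64.9% of E18.5 cap, 62.1% of E13.5 mutant and 66.7% of E13.5 cap cells. Of the 44 E18.5 mutant cells, 1 held 0 members, 4 held 1 and 8 held 2, and the rest met this rule. Asking for 5 gave 27.3% in E18.5 mutant, 57.7% in interstitium, 14.9% in E18.5 cap and 10.3% in E13.5 mutant cells. With every value over 0 counted the shares were 75% in E18.5 mutant cells, 56.8% in E18.5 cap cells and 51.7% in E13.5 mutant cells, with 4 members in 50% or more of E13.5 mutant cells, against 1. At 5 RPKM the share was 24.3% in E18.5 cap cells and 3.45% in E13.5 mutant cells. Without cells in which the pseudogene LOC100503946 reached 20000 RPKM, the E18.5 cap share was 53.7%, beside 57.5% of mutant and 83.9% of interstitium cells. With 3000 to 5000 genes it was 0% of the 2 E13.5 cap cells.

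Counts of higher and lower members moved as follows. In E18.5 mutant minus interstitium cells, 1 was higher and 4 lower with a pseudocount of 0.1, 0 lower with 10, 1 lower after median-ratio scaling, 4 higher by mean RPKM (Cnn1, at 0 in interstitium cells, among them), and 2 higher and 1 lower with 3000 to 5000 genes. With a pseudocount of 10, 1 was lower in mutant minus cap at E18.5, 0 in interstitium minus cap, and 1 higher and 0 lower in mutant minus cap at E13.5; within pool 2, 1 was lower in interstitium minus cap. With 3000 to 5000 genes, 4 were higher and 0 lower in E13.5 mutant minus cap and 5 higher in E18.5 minus E13.5 cap cells, where a pseudocount of 0.1 gave 2 higher and 1 lower and mean RPKM 3 higher. By mean RPKM 5 were higher in E18.5 minus E13.5 mutant cells. For pseudocounts, thresholds and matched cells the cause was not tested. Scaling moved the median of all genes in E18.5 mutant minus cap cells to -0.27 at most. With no low-value filter the backgrounds were 3.03% higher and 15.6% lower in E18.5 mutant minus cap cells. Unknown depth, 1 sample per group and the link of group with sex and pool limit every comparison.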
